A study of Sus scrofa with 55 samples.

Results

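Bone morphogenetic proteins (BMPs), activins and TGF-betas are secreted dimers that signal through pairs of membrane kinases. The genes described here are 1 ligand, BMP4, and 9 of the kinases: the type I receptors BMPR1A, BMPR1B, ACVR1, TGFBR1 and ACVR1B and the type II receptors BMPR2, ACVR2A, ACVR2B and TGFBR2. They were chosen by gene symbol, and all 10 were found among the 25880 genes of the deposited count table. RNA from the cytoplasm of 55 individual pig (Sus scrofa) oocytes had been sequenced with Smart-seq2, a full-length cDNA method for single cells, after 16 cycles of PCR. The oocytes are labelled by the stage of the antral follicle they came from, with 11, 12, 11, 11 and 10 oocytes at stages 1 to 5. They came from 4 wild-type Landrace or Yorkshire gilts (young sows) aged 208 to 210 days: 20 oocytes from gilt 803, 14 from gilt 201, 12 from gilt 801, which has none at stage 5, and 9 from gilt 205. All had received PMSG, an equine gonadotropin that stimulates follicle growth (5 IU, 48 h earlier), so no untreated animals are in the set. The labels give no follicle sizes for the stages.

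In this pathway a type II receptor binds the ligand together with a type I receptor and phosphorylates it, and the type I receptor then phosphorylates SMAD proteins, which enter the nucleus with SMAD4. BMPR1A, BMPR1B and ACVR1 act mainly on SMAD1, SMAD5 and SMAD9, while TGFBR1 and ACVR1B act on SMAD2 and SMAD3. In the ovary the oocyte itself secretes GDF9 and BMP15, which act on the granulosa and cumulus cells around it, and BMPR1B and BMPR2 are best known there as receptors of these somatic cells. BMP4 is known in the ovary mainly as a product of theca cells.

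The shallowest oocyte had 151104 counts in all, the median one 12139540 and the deepest 38282850, and the share of counts in the 13 mitochondrially encoded protein genes ran from 2.104% to 91.8%. No 2 oocytes had identical counts. The oocyte label was checked against marker genes: the zona pellucida gene ZP3 had a median of 4951 CPM (counts scaled to a total of 1000000 per oocyte) and the oocyte factor GDF9 a median of 832 CPM over all 55 oocytes. In 13 libraries, 12 of the 20 from gilt 803 and 1 of the 12 from gilt 801, granulosa and cumulus markers nevertheless held more counts than oocyte markers. These 13 are called granulosa-rich below; they numbered 3, 1, 3, 4 and 2 at stages 1 to 5. Their median ZP3 level was 181 CPM, against 6964 CPM in the other 42 oocytes. The 3 most abundant granulosa markers showed the opposite order: SERPINE2, a secreted protease inhibitor, had medians of 3991 CPM in the granulosa-rich libraries and 30.9 CPM in the others, INHA, the inhibin alpha subunit, 2476 and 24.6 CPM, and CYP11A1, the first enzyme of steroid synthesis, 1400 and 2.54 CPM. Of the 23 measured markers of this list, which also defined these libraries, 15 had a higher median in the granulosa-rich libraries, 2 a lower one (KITLG, at 0.578 CPM against 8.90 CPM, and STAR, at 0 CPM against 0.195 CPM), and 6 a median of 0 in both. One of the 6, the defining marker AMH, had no count in any oocyte. In a library that holds both kinds of transcript, counts from the oocyte and counts from attached cells cannot be told apart, and neither can a lower number of such cells and less RNA per cell.

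All 10 genes were detected, but none in every oocyte. The ligand BMP4 had at least 1 count in 41 of 55 oocytes. Among the type I receptors the numbers were 49 for BMPR1B, 45 each for ACVR1 and ACVR1B, 43 for BMPR1A and 42 for TGFBR1. For the type II receptors they were 43 for BMPR2, 38 for ACVR2B, 35 for ACVR2A and 24 for TGFBR2. These counts of oocytes are not scaled by transcript length. A gene with 0 counts can still have been present below the level of 3 counts, which was 0.247 CPM in the median oocyte and 19.9 CPM in the shallowest one. This floor, like the intervals given below, covers counting error only, since PCR copies were not told apart from molecules.

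The genes were unevenly spread over the oocytes. The median oocyte had counts for 8 of the 10 genes, and 9 oocytes had at least 3 counts of all 10: 4 from gilt 801, 3 from gilt 205, 2 from gilt 201 and none of the 20 from gilt 803. At the other end, stage 2 gilt 201 oocyte 2 had 0 counts for all 10 genes in a library of 16983519 counts, which allows at most 0.177 CPM for each. Stage 5 gilt 803 oocyte 1 had 9816782 counts and only BMPR1A among the 10, at 0.204 CPM. Thinned to 1000000 counts, where 3 oocytes were too shallow to enter (2 at stage 1 and 1 at stage 2), the expected number of the 10 genes with a count had medians of 7.62, 6.32, 5.01, 6.35 and 5.90 at stages 1 to 5, against unthinned medians of 9, 8.5, 8, 8 and 8.

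Receptor partners were often, but not always, found in the same oocyte library. BMPR1B and BMPR2 had at least 3 counts each in 38 oocytes, with BMPR1B alone in 11 and BMPR2 alone in 1. ACVR1 and BMPR2 were found together in 35 oocytes and BMPR1A and BMPR2 in 31. The activin pair ACVR1B and ACVR2B was found together in 31 oocytes, and ACVR1B with ACVR2A in 24. The TGF-beta pair was the least complete: TGFBR1 and TGFBR2 were together in 15 oocytes, while TGFBR1 was found without TGFBR2 in 21. Such numbers depend on each gene alone: BMPR1B had at least 3 counts in 49 oocytes, BMPR2 in 39, TGFBR1 in 36 and TGFBR2 in 18. The overlap expected from the single genes was not computed. In libraries that also hold counts of attached cells, finding 2 genes together does not place both in the oocyte.

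For levels between genes the second deposited table was used, within an oocyte and per transcript length; its values are scaled by length but carry no stated unit. ACVR1B is not among its complete lines, so 9 of the 10 genes were ranked. BMPR1B was the highest of the 9 in 24 of 55 oocytes, BMP4 in 12, ACVR1 in 8, BMPR1A and TGFBR1 in 4 each, BMPR2 and TGFBR2 in 1 each, and ACVR2A and ACVR2B in none. Between the 2 closely related BMP type I receptors, BMPR1B was above BMPR1A in 44 oocytes and below it in 10. BMPR1B was also above the type II receptor BMPR2 in 41 oocytes and below it in 9. Even so, BMPR1B stood at a median of 0.0559% of the value of ZP3 in the same oocyte.

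**Figure D1:**
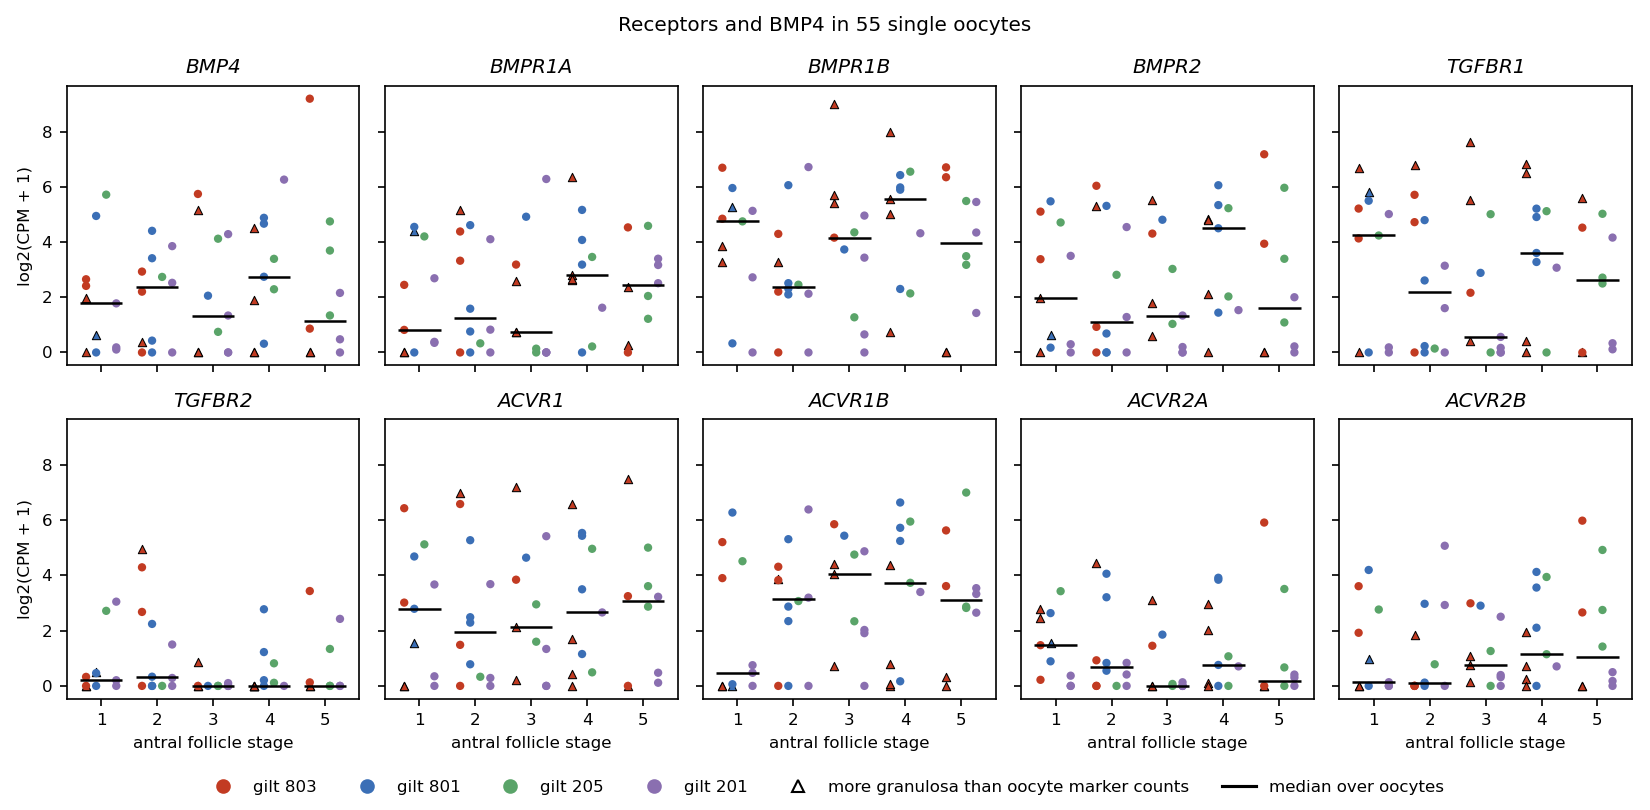
Level of each of the 10 genes, as log2(CPM + 1), in each of the 55 oocytes by antral follicle stage. Colours mark the gilt, triangles the 13 granulosa-rich libraries and black lines the median over the oocytes of a stage. For every gene the oocyte with the highest level shares its stage with an oocyte at 0 or below 1 CPM, and the highest BMP4 point (584 CPM) is 1 stage 5 oocyte of gilt 803.

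BMP4 (ENSSSCG00000005045), the ligand, was low in most oocytes and very high in 1. Its median CPM over oocytes was 2.43, 4.18, 1.53, 5.69 and 1.18 at stages 1 to 5, and its highest values were 51.6, 20.2, 52.5, 75.7 and 584 CPM. The 584 CPM of stage 5 gilt 803 oocyte 4 (12684 counts, 95% Wilson interval 574 to 595 CPM) made up 62.6% of all BMP4 counts of the study, and the next stage 5 oocyte had 25.9 CPM. That oocyte had 1704 CPM of oocyte markers and 1119 CPM of granulosa markers, so by the rule used it was not among the granulosa-rich libraries. The medians over the 42 oocytes outside that group were 16644 and 205 CPM. Theca and stroma markers held 378 CPM in this oocyte, against a median of 44.4 CPM in the same 42. Spearman's rho of BMP4 with these markers was 0.08 over all 55 oocytes and 0.38 over the 42. Without mitochondrially encoded genes in the totals it was -0.04 over the 55. The library with the most theca and stroma markers, stage 1 gilt 201 oocyte 1 (5844 CPM), had 2.43 CPM of BMP4. The part of other cells in the BMP4 level of stage 5 gilt 803 oocyte 4 was not tested. Stage 5 gilt 803 oocyte 4 also held the highest level in the study of BMPR2 (144 CPM), ACVR2A (59.4 CPM) and ACVR2B (62.4 CPM).

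After summing counts per gilt and stage and scaling by TMM (trimmed mean of M values) factors, BMP4 averaged 6.74 ± 5.64, 7.87 ± 6.10, 10.95 ± 6.73, 48.0 ± 83.4 and 64.4 ± 96.8 CPM at stages 1 to 5 (SD, n = 4 gilts, 3 at stage 5). The 2 high means each rest on 1 sum. At stage 4 gilt 201 had 173 CPM, gilt 205 had 10.5, gilt 801 had 5.91 and gilt 803 had 2.67 CPM, and the gilt 201 sum holds a single oocyte. At stage 5 gilt 803 had 176 CPM, gilt 205 had 13.8 and gilt 201 had 3.52 CPM. The order of the means ran from stage 1 up to stage 5, but every neighbouring pair in it differed by less than the larger of its 2 SDs.

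BMPR1A (ENSSSCG00000010360), a widely expressed BMP type I receptor, had median levels of 0.762, 1.39, 0.651, 6.07 and 4.41 CPM over the oocytes of stages 1 to 5. The sums averaged 4.80 ± 2.78, 6.05 ± 3.92, 28.1 ± 44.7, 6.89 ± 2.28 and 12.9 ± 8.17 CPM. The stage 3 mean comes from gilt 201, at 94.2 CPM against 16.1, 1.97 and 0.105 CPM in gilts 801, 803 and 205. A single gilt 201 oocyte, stage 3 oocyte 4, had 76.9 CPM, while the other 3 of that gilt and stage had 0. The highest level, 80.3 CPM, was in the granulosa-rich stage 4 gilt 803 oocyte 1.

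BMPR1B (ENSSSCG00000029621), the BMP type I receptor best known for its effect on ovulation rate in sheep, had medians of 25.9, 4.22, 16.9, 46.7 and 14.8 CPM at stages 1 to 5, and highest values of 102, 104, 507, 252 and 103 CPM. Stage 4 was the one stage where every oocyte had a count, the lowest at 0.661 CPM. The sums averaged 23.4 ± 15.1, 21.6 ± 23.4, 57.5 ± 71.7, 42.7 ± 23.2 and 38.9 ± 18.2 CPM. In order of the means the stages ran 3, 4, 5, 1 and 2, and no neighbours in that order differed by more than the larger of their SDs. The 2 highest oocytes, stage 3 gilt 803 oocyte 2 (507 CPM) and stage 4 gilt 803 oocyte 1 (252 CPM), were granulosa-rich.

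ACVR1 (ENSSSCG00000015874), which pairs with BMP and activin type II receptors, had medians of 5.93, 2.85, 3.42, 5.32 and 7.34 CPM at stages 1 to 5. Its highest values were 85.6, 126, 145, 95.5 and 181 CPM, all of them in gilt 803. The stage 5 value belongs to gilt 803 oocyte 2, a granulosa-rich library, and the next stage 5 oocyte had 31.2 CPM. ACVR1 sums averaged 13.6 ± 10.2, 13.3 ± 16.1, 30.1 ± 22.2, 13.9 ± 6.58 and 16.7 ± 7.82 CPM. Stage 3 had the highest mean, by less than its own SD.

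BMPR2 (ENSSSCG00000016113), the main BMP type II receptor, had median levels of 2.91, 1.17, 1.53, 21.6 and 2.06 CPM over the oocytes of stages 1 to 5. The stage 4 median stood above the others, while 1 of the 11 stage 4 oocytes had 0. Summed by gilt and scaled, the means were 10.5 ± 5.52, 12.5 ± 2.26, 8.35 ± 5.53, 12.996 ± 12.2 and 23.9 ± 20.4 CPM, with the highest mean at stage 5 and overlapping gilt sums. Mitochondrially encoded genes held a median of 9.05% of counts at stage 4 against 50.98%, 76.1%, 73.9% and 73.3% at stages 1, 2, 3 and 5; the part of that difference in the CPM of single oocytes was not tested.

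ACVR2A (ENSSSCG00000015669) and ACVR2B (ENSSSCG00000011257), type II receptors shared by activins and some BMPs, were low in most oocytes. ACVR2A had medians of 1.78, 0.622, 0, 0.692 and 0.117 CPM at stages 1 to 5, and only 6 oocytes were over 10 CPM. ACVR2B had medians of 0.0972, 0.0691, 0.701, 1.22 and 1.05 CPM, with 8 oocytes over 10 CPM. ACVR2A sums averaged 1.44 ± 1.16, 2.61 ± 2.59, 0.703 ± 0.742, 1.59 ± 1.01 and 7.31 ± 9.29 CPM, and ACVR2B sums 3.00 ± 2.67, 7.01 ± 11.4, 2.62 ± 1.57, 4.21 ± 5.36 and 10.7 ± 9.43 CPM. For ACVR2A the stage 5 mean came from gilt 803 (17.9 CPM) against 3.52 CPM in gilt 205 and 0.513 CPM in gilt 201. For ACVR2B gilt 803 had 19.1 CPM and gilt 205 had 12.4 CPM at stage 5, against 0.513 CPM in gilt 201.

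TGFBR1 (ENSSSCG00000005382), the TGF-beta type I receptor, had medians of 17.9, 3.57, 0.478, 11.2 and 5.10 CPM over the oocytes of stages 1 to 5, and its highest values were 102, 110, 198, 111 and 47.7 CPM. All 5 of these highest oocytes were granulosa-rich libraries of gilt 803. The sums averaged 15.9 ± 7.36, 10.9 ± 13.1, 25.5 ± 30.3, 17.9 ± 7.88 and 14.3 ± 1.99 CPM, with neighbours in the order of means (3, 4, 1, 5, 2) apart by less than the larger of their SDs.

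TGFBR2 (ENSSSCG00000011226), the type II receptor without which TGFBR1 does not bind TGF-beta well, was at or near 0 in most oocytes. It had a count in 6 of 11, 7 of 12, 2 of 11, 5 of 11 and 4 of 10 oocytes at stages 1 to 5. Only 2 oocytes were over 10 CPM, both from stage 2 of gilt 803: oocyte 2, at 30.5 CPM, held 17151 CPM of granulosa markers, and oocyte 3, at 18.6 CPM, held 14467 CPM of blood, immune and endothelial markers, the highest of any library. TGFBR2 had a count in 3 of the 13 granulosa-rich libraries and in 21 of the other 42. The library with the most granulosa markers, stage 3 gilt 803 oocyte 2 (34111 CPM), had 0 counts of it. Summed by gilt, TGFBR2 averaged 1.51 ± 1.94, 2.71 ± 4.07, 0.0335 ± 0.0395, 0.398 ± 0.473 and 1.76 ± 2.03 CPM. At stage 3 the sums of gilts 201 and 803 had 0.0769 and 0.0570 CPM and those of gilts 205 and 801 had 0, against 1.17, 8.77, 0 and 0.906 CPM at stage 2 in gilts 201, 803, 205 and 801.

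ACVR1B (ENSSSCG00000000233), the activin type I receptor, had a count in 7 of 11, 9 of 12, 10 of 11, 10 of 11 and 9 of 10 oocytes at stages 1 to 5. Its medians were 0.389, 7.79, 15.5, 12.3 and 7.69 CPM at stages 1 to 5, with highest values of 76.7, 82.98, 56.9, 99.0 and 127 CPM. The sums averaged 11.5 ± 9.73, 20.6 ± 20.9, 24.6 ± 7.30, 24.4 ± 23.3 and 28.3 ± 15.6 CPM. Stage 1 had the lowest mean and the lowest median, but its sums, from 0.495 to 20.7 CPM, overlapped those of every later stage.

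The question of the stage comparison was whether any of these transcripts changed as follicles grew. None passed the test. For stage 5 against stage 1, 0 of 10 genes passed (edgeR's quasi-likelihood test, two-sided, Benjamini-Hochberg adjusted p under 0.05 over 15637 genes), where 0% of all genes passed. At an unadjusted p under 0.05 the numbers were 0 of 10 genes and 5.37% of all genes, and DESeq2 and limma-voom also called 0 of the 10. The gilt sums of the compared stages overlapped for all 10 genes, while 6.16% of all genes had sums that did not overlap.

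The fitted log2 changes from the same test were 3.28 ± 1.73 for BMP4 (adjusted p = 0.927), 1.81 ± 1.69 for ACVR2B, 1.76 ± 1.77 for ACVR2A and 1.18 ± 1.29 for BMPR1A (SE). BMPR2 had 0.93 ± 1.01, ACVR1B 0.77 ± 1.12, BMPR1B 0.49 ± 0.95 and ACVR1 0.32 ± 1.01. TGFBR1 and TGFBR2 were on the other side of 0, at -0.28 ± 1.23 and -0.20 ± 1.98. So 8 of 10 changes were above 0, with a median of 0.85, against 42.7% of all genes and a median of -0.27. With total counts as the only scaling, where the median of all genes moved to -1.16, 7 of 10 were above 0 with a median of 0.12. Without stage 5 gilt 803 oocyte 4, a check chosen after seeing the data, 8 of 10 were above 0 with a median of 0.33, where the median of all genes was -0.46. BMPR1A and ACVR2A were higher at stage 5 than at stage 1 in all 3 gilts that had both stages, and so was ACVR2B. BMP4, BMPR1B, BMPR2, ACVR1 and ACVR1B were higher in 2 of the 3, and TGFBR1 and TGFBR2 in 1. The share of all genes higher in all 3 gilts was not measured. In gilt 201 the values were low, from few counts: 0.165 CPM at stage 1 and 0.513 CPM at stage 5 for ACVR2A, 0.0550 and 0.513 CPM for ACVR2B. Summed granulosa markers ran from 110 to 4761 CPM over the stage 5 sums and from 2230 to 5310 CPM over the stage 1 sums, and summed theca and stroma markers from 37.0 to 634 CPM at stage 5 and from 159 to 2104 CPM at stage 1; their part in these changes was not tested beyond leaving out the granulosa-rich oocytes.

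The BMP4 change turned round without 1 oocyte. Leaving out the same oocyte gave -1.28 ± 1.37 for BMP4 and -0.14 ± 1.10 for BMPR2, and left ACVR2A at 0.44 ± 1.91 and ACVR2B at 0.10 ± 1.83, all with edgeR. Without gilt 803 as a whole, BMP4 had -0.67 ± 1.32. Without the 13 granulosa-rich oocytes, which do not include that oocyte, BMP4 had 1.77 ± 1.72 and ACVR1 changed sign to -0.47 ± 1.25.

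**Figure D2:**
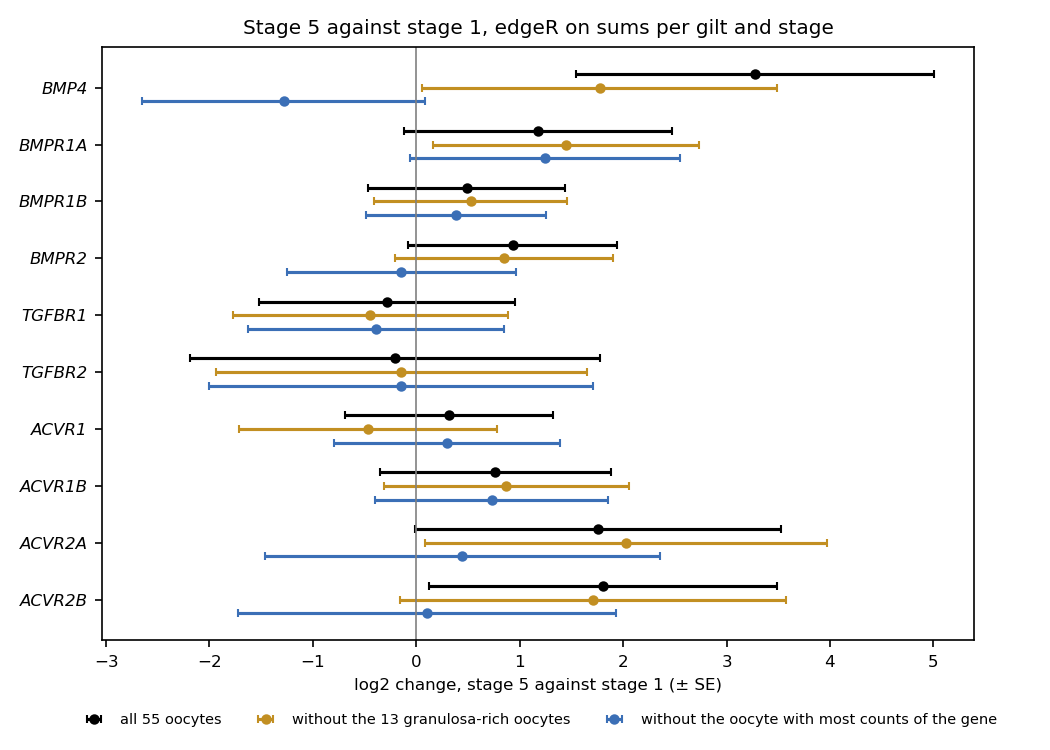
Fitted log2 change of each gene at stage 5 against stage 1, with bars of 1 SE, from edgeR on counts summed per gilt and stage. Black points use all 55 oocytes, ochre points leave out the 13 granulosa-rich oocytes and blue points leave out the oocyte with the most counts of that gene. For BMP4 the value is 3.28 with all oocytes and -1.28 without that 1 oocyte.

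Neighbouring stages and the trend gave no call either. In edgeR, 0 of 10 genes passed for stage 2 against 1, 3 against 2, 4 against 3 and 5 against 4, where 0% of all genes passed in each. The joint test of all 5 stages also called 0 of 10 and 0%, and the trend over stages called 0 of 10 and 0.0128%. The ranges of gilt sums overlapped for all 10 genes in every neighbouring pair, while 3.04%, 1.18%, 1.71% and 1.95% of all genes did not overlap in the 4 pairs in that order. By unadjusted p, 1 of 10 genes was under 0.05 in the trend (5.76% of all genes), 1 of 10 for stage 3 against 2 (4.66%), and 0 of 10 for stage 2 against 1 (6.61%), 4 against 3 (4.13%) and 5 against 4 (2.98%). Changes above 0 numbered 6 of 10 for stage 2 against 1 (37% of all genes), 6 for 3 against 2 (54.9%), 6 for 4 against 3 (46.3%) and 7 for 5 against 4 (54.5%).

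The gene with the lower p in the trend was BMP4, with a slope of 0.78 ± 0.35 log2 units per stage (edgeR, adjusted p = 0.831), and the slope was above 0 in 2 of 4 gilts. Without stage 5 gilt 803 oocyte 4 it was 0.12. The gene of the stage 3 comparison was TGFBR2, at -6.35 ± 2.56 (edgeR, adjusted p = 0.995) on the sums given above. DESeq2 called this change, at -6.46 ± 1.91 with an adjusted p of 0.0273, in a comparison where it called 3.09% of all genes. TGFBR2 had 2 of 11 oocytes with a count at stage 3, and without gilt 803 the edgeR value was -5.10 ± 2.72. Slopes were above 0 for 9 of 10 genes with a median of 0.21, against 42.5% of all genes and a median of -0.06; the share was 7 of 10 with total counts as the only scaling. Without stage 5 gilt 803 oocyte 4 it was 7 of 10 with a median of 0.09, and without gilt 205 it was 6 of 10 with a median of 0.03.

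How far these tests reach was measured on simulated counts with the real means and library sizes. For stage 5 against stage 1, 0 of 93 genes changed 4-fold were recovered and 7 of 90 genes changed 16-fold, with 0 false calls among the 14737 genes run. The biological coefficient of variation between sums was 1.24. The changed genes in this simulation were drawn from all genes and not from these 10. Apart from the stage 5 change each gene had a single mean in all sums, so differences between gilts were not simulated. Changed genes that failed the low-count filter on the simulated counts are not among the 93 and 90.

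More genes were called between animals than between stages. Gilt 803 is a single animal, and the sums of a gilt are repeated samples of the same animal. The SDs, SEs and p values of the gilt comparison therefore describe the spread of sums and not of animals. In edgeR, 4.68% of all genes passed for gilt 803 against the mean of the other gilts, 688 of them higher and 44 lower (4.40% of all genes higher). The split depended on the tool, with 1836 higher and 904 lower in DESeq2, 603 and 294 in limma-voom, and 1080 and 319 in edgeR with each oocyte as a library. Of the 10 genes, 0 passed, 6 had a change above 0 (52.7% of all genes), 0 had an unadjusted p under 0.05 (17.3% of all genes), and DESeq2 and limma-voom also called 0. The joint test of all 4 gilts called 0 of 10 genes and 2.17% of all genes. Summed granulosa markers, 23 measured of 26 listed, ran from 36.6 to 34111 CPM over the oocytes of gilt 803, against 26.7 to 12783 CPM in gilt 801, 37.6 to 6471 CPM in gilt 201 and 29.1 to 5310 CPM in gilt 205. Their medians were 6330 CPM in gilt 803, against 315, 198 and 142 CPM in gilts 801, 201 and 205.

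The sums of TGFBR1 averaged 30.0 ± 20.8 CPM in gilt 803 and 12.4 ± 9.75 CPM in the other gilts (SD, n = 5 and 14 sums). The fitted log2 change of TGFBR1 was 1.43 ± 0.79 (edgeR, adjusted p = 0.362). ACVR1 averaged 29.0 ± 13.5 CPM in gilt 803 and 13.5 ± 12.5 CPM in the others, a log2 change of 1.34 ± 0.67 (adjusted p = 0.304). BMPR1B averaged 56.1 ± 61.9 CPM in gilt 803 against 29.8 ± 20.9 CPM, with a log2 change of 0.88 ± 0.68. ACVR1B lay the other way, at 11.4 ± 8.02 CPM in gilt 803 and 25.2 ± 16.5 CPM in the others, with a log2 change of -1.02 ± 0.83. With total counts as the only scaling TGFBR1 passed, at 2.83 ± 0.90 (edgeR, adjusted p = 0.0302), in a fit where 13.7% of all genes passed and the median of all genes was 1.17. Without the granulosa-rich oocytes the TGFBR1 change was 0.21 ± 1.00, that of ACVR1 0.81 ± 0.91, that of BMPR1B 0.25 ± 0.72 and that of ACVR1B -0.01 ± 0.86. In that fit 0.034% of all genes passed. It had lost 12 of the 20 oocytes of gilt 803, including all 4 at stage 4, so that gilt had no stage 4 sum. The median SE over all genes was 1.45, against 1.23 with all oocytes.

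Between the granulosa-rich libraries and the rest the comparison is a description, because the libraries were grouped from these data. TGFBR1 had a median of 47.7 CPM in the 13 granulosa-rich libraries and 5.32 CPM in the other 42, and BMPR1B 31.1 and 14.6 CPM. Mitochondrially encoded genes are part of the totals that CPM divides by. They held a median of 6.26% of counts in the granulosa-rich libraries and 76.7% in the others. The part of that difference in the medians of this paragraph was not tested. ACVR1 had a lower median in the granulosa-rich libraries, 1.96 against 6.13 CPM, although 4 of them held 95.5 to 181 CPM of it. ACVR1B had 0.235 CPM in granulosa-rich libraries and 10.1 CPM in the others, BMP4 0 and 4.10 CPM, and ACVR2B 0.188 and 0.968 CPM. The medians of BMPR2 (2.44 and 3.04 CPM) and BMPR1A (5.08 and 2.60 CPM) lay closer together. ACVR2A had a higher median in the granulosa-rich libraries, 1.96 against 0.330 CPM, and TGFBR2 had 0 and 0.0366 CPM.

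The 2 libraries with the most BMPR1B were granulosa-rich. Stage 3 gilt 803 oocyte 2, with 34111 CPM of granulosa and 392 CPM of oocyte markers, had 507 CPM of BMPR1B, 198 CPM of TGFBR1 and 145 CPM of ACVR1, but 0 CPM of BMP4 and 0.114 CPM of ACVR2B. Stage 4 gilt 803 oocyte 1, with 24881 and 324 CPM of the same markers, had 252 CPM of BMPR1B, 111 CPM of TGFBR1 and 95.5 CPM of ACVR1, and 0 CPM of BMP4, BMPR2 and ACVR1B. Both had little mitochondrial RNA, 2.28% and 2.23% of counts. Not every granulosa-rich library was like them: stage 5 gilt 803 oocyte 1, with 6918 CPM of granulosa and 72.0 CPM of oocyte markers, had 0 CPM of BMPR1B, TGFBR1 and ACVR1. The library with the most ACVR1B, stage 5 gilt 205 oocyte 3, had 16453 CPM of oocyte and 148 CPM of granulosa markers. It held 127 CPM of ACVR1B, 61.5 CPM of BMPR2 and 29.4 CPM of ACVR2B, but also 43.8 CPM of BMPR1B, 31.5 CPM of TGFBR1 and 31.2 CPM of ACVR1.

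**Figure D3:**
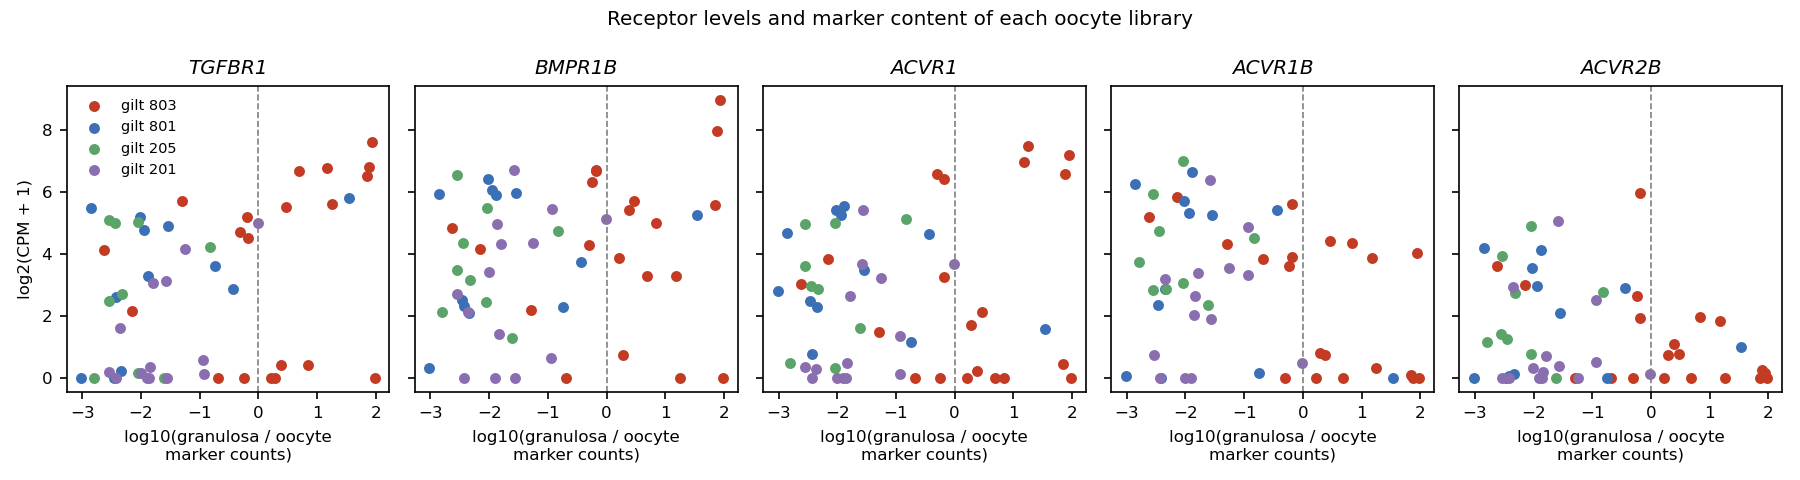
Levels of 5 receptors, as log2(CPM + 1), against the log10 ratio of granulosa to oocyte marker counts in each of the 55 libraries, coloured by gilt. The dashed line marks equal counts of both marker lists, and the 13 granulosa-rich libraries lie right of it. TGFBR1 and BMPR1B reach their highest levels on the right, ACVR1B and ACVR2B on the left.

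Across oocytes the CPM of the 10 genes were correlated to different degrees, on a high background. Spearman's rho of their CPM over the 55 oocytes was above 0 for all 45 pairs, from 0.15 for BMP4 and TGFBR2 to 0.78 for ACVR1B and ACVR2B, with a median of 0.44. Between the 10 genes and the other 15627 tested genes, rho was above 0 for 97.0% of pairs, with a median of 0.37. In the 42 oocytes that were not granulosa-rich the medians were 0.56 among the 10 genes and 0.46 with other genes, and without mitochondrially encoded genes in the totals 0.33 and 0.26. These values describe oocytes that share libraries, gilts and depth, so no p is given. Close behind the activin pair came BMPR2 with ACVR2B (0.70), BMP4 with ACVR1B (0.67), BMPR2 with ACVR1B (0.64) and BMP4 with ACVR2B (0.62). TGFBR1 had its highest values with ACVR1 (0.60) and BMPR1B (0.57), and low ones with ACVR1B (0.29), BMP4 (0.29) and ACVR2B (0.27).

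The rho values changed with the totals used and with the oocytes included. The percent of mitochondrial counts had a rho of -0.55 with TGFBR1, -0.46 with BMPR1A, -0.41 with BMPR1B and -0.09 with BMP4. Mitochondrial counts are part of the totals that CPM divides by, so part of these negative values is arithmetic. With mitochondrially encoded genes out of the totals the values were -0.33, -0.19, -0.05 and 0.14 in that order. After leaving mitochondrially encoded genes out of the totals, ACVR1B and ACVR2B had a rho of 0.80 and BMPR2 and ACVR2B of 0.71, while TGFBR1 and ACVR1 had 0.46. In the 42 oocytes that were not granulosa-rich, the rho was 0.82 for ACVR1B and ACVR2B, 0.77 for BMPR2 and ACVR2B, and 0.49 for TGFBR1 and ACVR2B. With granulosa markers, TGFBR1 had a rho of 0.44, BMPR1B of 0.33 and ACVR1B of -0.10. Without mitochondrial genes in the totals these were 0.20, 0.02 and -0.42. TGFBR2 had its highest rho among the marker lists, 0.40, with blood, immune and endothelial markers, and so did BMPR2, also at 0.40. In the 42 oocytes that were not granulosa-rich, rho with these markers was 0.60 for BMPR2 and TGFBR1, 0.57 for TGFBR2 and 0.55 for ACVR1. The remaining genes ran from 0.27 (ACVR2B) to 0.40 (ACVR1B). Without mitochondrial genes in the totals, over all oocytes, TGFBR2 had 0.30, BMPR2 0.20 and TGFBR1 -0.03.

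**Figure D4:**
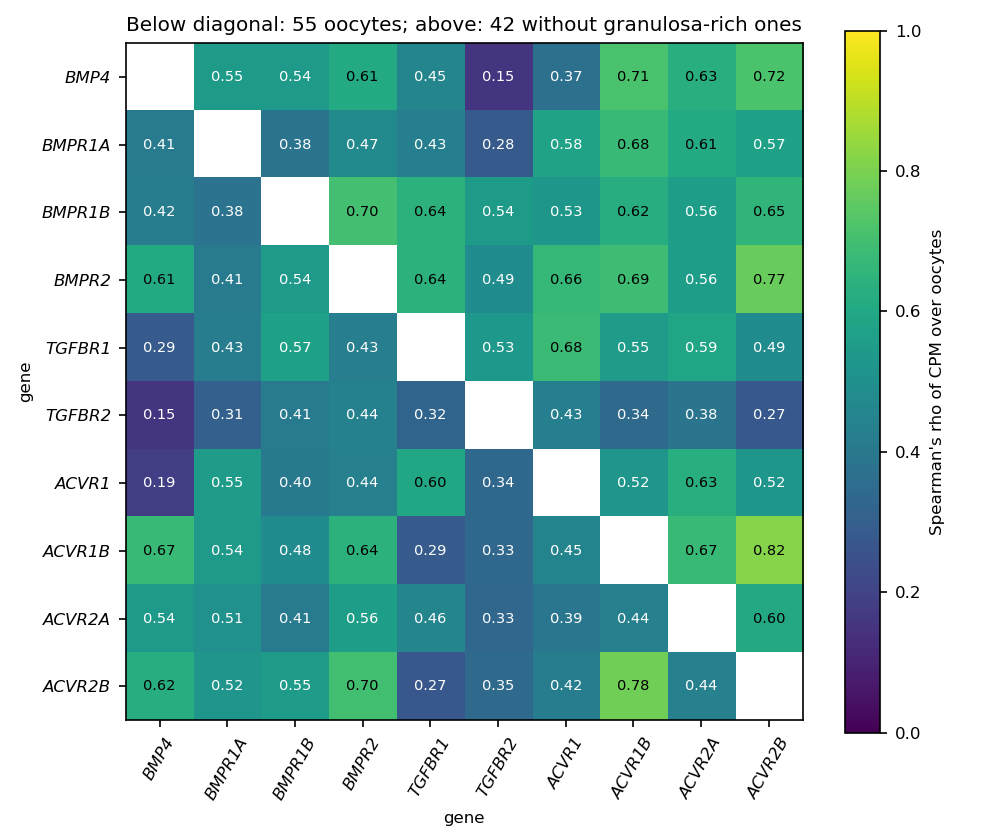
Spearman's rho between the CPM of each pair of genes over oocytes, below the diagonal for all 55 oocytes and above it for the 42 that were not granulosa-rich. Colour runs from 0 to 1. The highest cell is ACVR1B with ACVR2B on both sides (0.78 and 0.82), and the lowest below the diagonal is BMP4 with TGFBR2 (0.15).

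Other genes of the pathway were taken from 7 lists, and none of their members passed in any stage comparison with edgeR. For stage 5 against stage 1 the lists held 16 tested ligands, 10 other receptors and co-receptors, 6 SMAD transducers, 20 inhibitory SMADs and regulators of receptor turnover, 11 extracellular inhibitors, 11 non-SMAD effectors and 12 target genes, with 0 called in each by edgeR. Over the 86 distinct genes edgeR tested, 6 had an unadjusted p under 0.05, where 5.37% of all genes did, and limma-voom called 0. DESeq2 called 2 of 102, CHRDL1 and SMAD9, in a comparison where it called 3.64% of all genes. Between neighbouring stages DESeq2 called 8 of 102 for stage 2 against 1 (3.27% of all genes), 7 for 3 against 2 (3.09%), 3 for 4 against 3 (3.09%) and 1 for 5 against 4 (2.50%). The lowest p belonged to CHRDL1, an extracellular BMP antagonist, at 0.289 ± 0.259 CPM at stage 5 and 19.6 ± 16.1 CPM at stage 1 (SD, n = 3 and 4), a log2 change of -9.94 ± 2.81 (edgeR, adjusted p = 0.904). NBL1, another such antagonist, had a change of -3.17 ± 1.57. Of the 11 extracellular inhibitors, 1 had a change above 0, where 42.7% of all genes did. In the same comparison, the marker lists of other cells had changes above 0 for 3 of 16 theca and stroma (median -3.23), 3 of 22 granulosa and cumulus (median -1.04) and 2 of 17 blood, immune and endothelial markers (median -4.89). Their part was not tested.

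Among the ligands, BMP5 had 0 CPM in all 3 sums at stage 5 and 0.236 ± 0.190 CPM at stage 1. INHA, whose product forms inhibin and opposes activin, averaged 381 ± 516 CPM at stage 5 and 781 ± 936 CPM at stage 1. The co-receptors RGMA and ENG had changes of -5.80 ± 2.62 and -3.47 ± 1.99, and the SMAD transducers SMAD9 and SMAD3 of -5.93 ± 2.55 and 2.35 ± 1.52. LEMD3, which binds SMADs at the nuclear envelope, had 1.37 ± 0.88, and the repressor TGIF1 -3.88 ± 2.64. In the kinase pathway beside the SMADs, TAB3, an adaptor of the kinase TAK1, had 1.99 ± 0.98, and the GTPase RHOA -1.54 ± 0.77. The target genes PMEPA1 and CCN2 had -1.52 ± 1.45 and -1.68 ± 2.15, although their plain means were higher at stage 5 (29.6 and 508 CPM) than at stage 1 (13.99 and 147 CPM). The fit compares stages within gilts, and the plain means do not. None of these passed (edgeR, adjusted p from 0.904 to 0.996).

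In gilt 803, by contrast, 10 of the 86 tested genes of these lists were called higher and 1 lower by edgeR, where 4.68% of all genes were called and 4.40% called higher. Of the 12 tested target genes 4 were called and 7 had a change above 0. PMEPA1, a TGF-beta target that dampens the pathway, averaged 41.9 ± 29.2 CPM in gilt 803 and 4.10 ± 8.999 CPM in the other gilts (SD, n = 5 and 14 sums). Its fitted log2 change was 7.40 ± 1.04 (edgeR, adjusted p = 0.000136). TGFBI and CCN2, both matrix-associated products, changed by 5.23 ± 1.49 and 5.03 ± 1.32. Among those not called, ID2 had a log2 change of 3.72 ± 1.24 (edgeR, adjusted p = 0.0924) and KLF10 of 3.32 ± 1.08 (edgeR, adjusted p = 0.0820), and DESeq2 called both. HEY1 had 0.37, LTBP2 -0.08, and the BMP targets ID3, ID4, MSX1 and MSX2 between -1.11 and -0.42. ID1 and ATOH8 were not tested.

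Also called higher were the transducer SMAD2 (2.29 ± 0.56), the repressors SKIL (3.94 ± 1.01) and TGIF1 (6.54 ± 1.63), RHOA (1.83 ± 0.48), the antagonist NBL1 (4.33 ± 1.196) and INHBA, the activin A subunit (2.41 ± 0.61), all log2 changes from edgeR. GDF9, the oocyte ligand, was called lower, at 268 ± 324 CPM in gilt 803 and 2481 ± 1980 CPM in the others, a log2 change of -3.38 ± 0.74 (adjusted p = 0.0073). In the same comparison 9 of 22 tested granulosa markers were called higher and 5 of 14 oocyte markers lower, as were 4 of 17 blood, immune and endothelial and 2 of 16 theca and stroma markers higher and 6 of 13 mitochondrially encoded genes lower. INHBA is itself on the granulosa list and GDF9 on the oocyte list. Without the 13 granulosa-rich oocytes, edgeR called 0 of 82 tested pathway genes, with 9 at an unadjusted p under 0.05, where 7.42% of all genes were. PMEPA1 then had 3.11 ± 1.38, SMAD2 -0.48 ± 0.85 and NBL1 -2.33 ± 1.69. As given above, that fit had lost most oocytes of gilt 803 and had a larger median SE. With all oocytes, DESeq2 called 26 of 102 pathway genes (14.4% of all genes) and limma-voom 7 of 86 (5.74%).

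**Figure D5:**
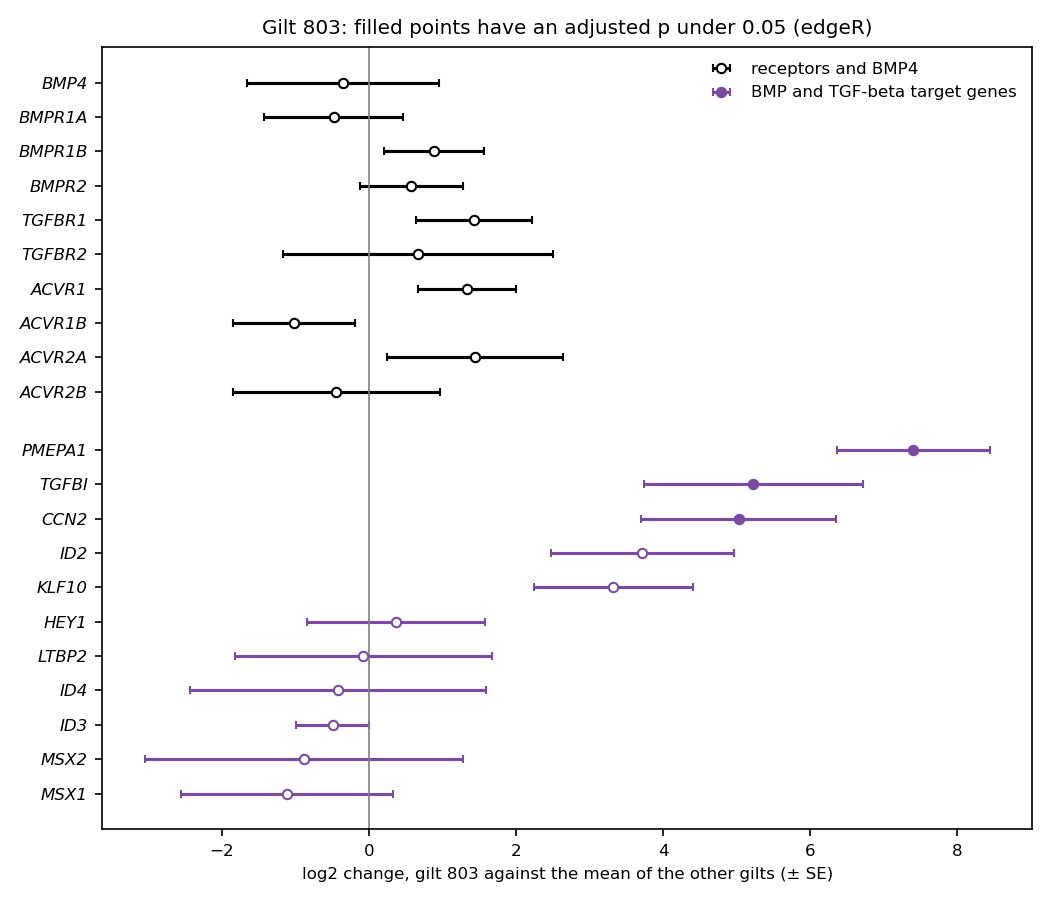
Log2 change, with bars of 1 SE, of the 9 receptors and BMP4 and of 11 BMP and TGF-beta target genes in gilt 803 against the mean of the other gilts, from edgeR. Filled points have an adjusted p under 0.05. None of the 10 is filled, with values from -1.02 (ACVR1B) to 1.44 (ACVR2A), while PMEPA1, TGFBI and CCN2 are filled at 5.03 to 7.40.

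For each of the 10 genes, the 3 genes with the most similar pattern were named by Pearson's r of log2(CPM + 1) over the 19 sums, among about 5191 genes with a symbol and a mean of at least 10 CPM. They were MAGI3, ANO4 and RCBTB2 for BMP4 (r from 0.78 to 0.79), NOL7, AMPD3 and AGPS for BMPR1A (0.72 to 0.81), and MDN1, TNPO2 and CAB39 for BMPR1B (0.70 to 0.73). ACVR1 was most like SMARCA5, AP3M1 and TOGARAM2 (0.80 to 0.82). TGFBR1 was most like TBCA, KLF10 and FUBP1 (0.85 to 0.89), and TGFBR2 most like the complement gene C1QB, then NFE2L3 and CTNNA1 (0.71 to 0.74). The highest TGFBR2 sum, 8.77 CPM at stage 2 of gilt 803, includes the library with 14467 CPM of blood, immune and endothelial markers. Likeness without that sum was not computed. Among the rest, BMPR2 had ULK1, DNAJC27 and SECISBP2L (0.78 to 0.80), ACVR2A had WNK1, ZNF532 and DDX20 (0.80 to 0.82), ACVR1B had STK35, ORMDL3 and DYNLL2 (0.90 to 0.92) and ACVR2B had RBPMS2, STAU1 and ATF7 (0.86 to 0.88). None of the 10 was among the 3 most similar genes of another. The highest r that chance gives among so many genes over 19 sums was not measured.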

How the data were processed

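Single-oocyte Smart-seq2 libraries of pig oocytes were analysed from 2 tables that the authors deposited. One holds raw counts of reads per gene as deposited by the authors, not normalized, for 55 oocytes (25880 Ensembl genes, 14857 with a symbol). The other holds values on a scale other than counts; these deposited values are scaled by length, as found from the values, and no unit is stated for them. The submitters' processing notes name HISAT2 2.1.0 and StringTie 1.2.2, and also featureCounts and Trim Galore 0.4.3, without saying what each did. Their settings, the strand rule, the genome build and the annotation are not stated in what was used here, so overlapping or antisense genes cannot be told apart. The length-scaled table breaks off within its last line and lacks 2382 genes; 23498 were used.

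Groups are the labelled follicle stages. Counts were summed per gilt and stage (19 sums), since oocytes of a gilt are not independent, and tested with edgeR 4.0.16 (quasi-likelihood, TMM factors, filter on low counts by stage, model of stage and gilt, two-sided) in R 4.3.3, with Benjamini-Hochberg adjustment over 15637 genes and a threshold of 0.05. Level changes are log2 values from this fit. The tests were checked on simulated data. Alternatives were DESeq2 1.42.0, limma 3.58.1, other scalings and filters, single oocytes, and leaving out gilts or oocytes. The block for gilts follows animals that gave oocytes at several stages; deviations of sums from the same gilt correlated on average at -0.00138, 0.217, 0.145 and 0.192 in gilts 201, 205, 801 and 803, and at -0.101 between gilts. Thinning gave the expected number of genes with a count at 1000000 counts. Named pathway genes are the 2 with the lowest p per list for stage 5 against stage 1 and those called for gilt 803. Genes of interest and gene lists were chosen with earlier results of these data known. The series design also covers other assays and more oocytes, not analysed here. One gene counted in the pathway lists is not reported here.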

Additional observations from a re-analysis of the deposited data

Results flagged for a closer look

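The gilt sums of stages 1 to 4 and the 10 oocytes of stage 5 were screened with Dixon's test for a value far from the others of its group, and 13 of 50 groups held one. Chance gives about 1 in 20 where values are normally distributed; these CPM are skewed and were not transformed, so the number that chance would give here was not measured. The groups also share oocytes and gilts, so these are not independent.

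At stage 5 one oocyte, gilt 803 oocyte 4, stood apart for BMP4 (584 CPM, with the next at 25.9), BMPR2 (144, next 61.5), ACVR2A (59.4, next 10.4) and ACVR2B (62.4, next 29.4). Other stage 5 oocytes that stood apart were gilt 803 oocyte 3 for TGFBR2 (9.83 CPM, next 4.38), gilt 803 oocyte 2 for ACVR1 (181, next 31.2) and gilt 205 oocyte 3 for ACVR1B (127, next 48.6).

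Among the gilt sums, gilt 201 stood apart for BMP4 at stage 4 (173 CPM, next 10.5), for BMPR1A at stage 3 (94.2, next 16.1) and for ACVR2B at stage 2 (24.1, next 1.69). Gilt 803 did so for TGFBR2 at stage 2 (8.77 CPM, next 1.17) and for ACVR1 at stage 1 (28.8, next 9.49), and gilt 205 for ACVR1 at stage 4 (23.7, next 12.2). The stage 4 sum of gilt 201 is a single oocyte with 83.2% of its counts in mitochondrially encoded genes and a TMM factor of 0.438, which places its 75.7 CPM of BMP4 at 173 CPM after scaling.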

How the results depend on the processing

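Of 314 alternative values of the log2 changes of single genes, 290 kept their direction and side of the threshold and 24 changed sign. The number called among the 10 genes was 0 in 168 alternatives. It was 1 for gilt 803 with total counts only (TGFBR1) and 1 for stage 3 against 2 with DESeq2 (TGFBR2).

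The alternatives that leave out one oocyte were chosen after seeing the data. Without the oocyte with the most counts of a gene, the stage 5 to stage 1 change was -1.28 for BMP4 and -0.14 for BMPR2, and the trend per stage was -0.080 for BMPR2, -0.074 for ACVR2B and -0.0020 for TGFBR1. With total counts only, ACVR1 had -0.52 (stage 5 to 1) and -0.048 (trend), and TGFBR1 a trend of -0.044. Without granulosa-rich oocytes, ACVR1 had -0.47 and -0.023, and TGFBR1 a trend of -0.022. With limma-voom, TGFBR2 had 0.91 for stage 5 to 1, and the trends of TGFBR1 and ACVR1 were -0.081 and -0.017. With each oocyte as a library, TGFBR1 and TGFBR2 had 0.062 and 0.79 for stage 5 to 1. With no replicate block, that is with gilt left out of the pairing, TGFBR2 had 0.22; leaving out the block changed no call among the 10 genes. Leaving out each gilt in turn, the stage 5 to stage 1 changes ran from -0.67 (without gilt 803) to 4.38 for BMP4, from -0.66 to 0.19 (without gilt 801) for TGFBR1, from -0.48 to 0.95 (without gilt 205) for TGFBR2 and from -0.14 (without gilt 205) to 0.69 for ACVR1. The trends ran from -0.11 to 0.15 for TGFBR1, from -0.031 to 0.30 for ACVR1 and from -0.029 to 0.39 for ACVR1B, each lowest without gilt 205. The cause of these changes was not tested.

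Calls over all genes moved by more than 1.5 times: for stage 5 against 1 from 0 to 774 with DESeq2, 23 with no low-count filter and 1 without gilt 201, and for gilt 803 from 732 to 2740 with DESeq2, 1399 with each oocyte as a library, 1156 with no low-count filter, 2138 with total counts only, 291 in the length-scaled table and 5 without granulosa-rich oocytes. Having 4 animals, and sums of 1 to 4 oocytes, limits all stage comparisons. The gilt 803 comparison rests on a single animal on its side.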
